A study of Mus musculus with 6 samples.

Results

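The genes of MHC class II antigen presentation were followed across the cell types of mouse colonic tumours, in 10 member genes found by symbol among the 31053 features of each count table. They comprise the classical chains H2-Aa, H2-Ab1 and H2-Eb1, the invariant chain Cd74, the peptide editors H2-DMa, H2-DMb1, H2-DMb2, H2-Oa and H2-Ob, and the transactivator Ciita. Each was read per cell and per library in dendritic, B, macrophage, epithelial and mast cells, beside the level of the same genes in RNA outside cells. Single-cell RNA was measured in 6 libraries of whole colon tumours from male mice, 3 of each model, with a 10x 3′ assay on dissociated cells from which dead ones had been sorted out by DAPI. The Apc ICI tumours (genotype VilCreER Apcfl/fl, labelled intracolonic induction) were started by 1 injection of 70 µl of 100 µM 4-OH tamoxifen into the submucosa of the colon. The AOM PN tumours (genotype VilcreER P53fl/fl Notch1Tg, labelled ageing tumour) followed 2 mg of tamoxifen given intraperitoneally and, from day 4, AOM at 10 mg/kg each week for 6 weeks. VilCreER is a tamoxifen-dependent Cre driven by villin, which is active in intestinal epithelium. The design thus directs recombination of the floxed genes to the epithelium and not to the immune cells described here, and recombination was not measured here. AOM, azoxymethane, is a carcinogen of the colon. The models differ in the genes altered, the carcinogen, the way of induction and possibly the time of collection, and these cannot be told apart. The labels do not say whether each library came from a separate animal, and p-values therefore reflect the variation among these samples, which may be technical.

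MHC class II molecules are pairs of an alpha and a beta chain (H2-Aa with H2-Ab1, and H2-Eb1 with an alpha chain of its own) that present peptides from endosomes to CD4 T cells. The invariant chain Cd74 fills the groove and guides the pair to endosomes. There H2-DM, built from H2-DMa with H2-DMb1 or H2-DMb2, exchanges the remaining fragment of Cd74 for peptide, and H2-O, built from H2-Oa and H2-Ob, restrains H2-DM. Ciita is recruited to a conserved X and Y box upstream of these genes and switches them on, constitutively in dendritic and B cells and after interferon gamma in many others, intestinal epithelium included.

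The promoters are shown because some of them hold letters of this element that few other promoters hold. RefSeq promoters of build GRCm38.p6 were used for 7 members (8 promoters). Cd74, H2-Ab1 and Ciita were not among them, so the counts of members below do not cover these genes. The windows below run from base -135 to base -31 relative to the annotated start, 5′ to 3′ on the gene's strand, and capitals mark the X box core (AAC, any 2 bases, then ATGATGC) and the Y box core (GATTGG), which do not overlap each other. H2-DMb1 lies at chr17:34153056-34153160 on the plus strand, H2-DMb2 at chr17:34145114-34145218 on the plus strand, H2-Eb1 at chr17:34305732-34305836 on the plus strand and H2-Ob at chr17:34238770-34238874 on the plus strand. H2-Aa lies at chr17:34287854-34287958 on the minus strand and H2-Oa at chr17:34092244-34092348 on the plus strand.
H2-DMb1: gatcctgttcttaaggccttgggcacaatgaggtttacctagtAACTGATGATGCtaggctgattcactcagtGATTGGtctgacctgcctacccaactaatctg
H2-DMb2: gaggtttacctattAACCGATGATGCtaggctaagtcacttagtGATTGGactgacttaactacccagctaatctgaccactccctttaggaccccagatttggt
H2-Eb1: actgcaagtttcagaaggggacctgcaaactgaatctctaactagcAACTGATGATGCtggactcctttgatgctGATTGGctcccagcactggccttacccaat
H2-Ob: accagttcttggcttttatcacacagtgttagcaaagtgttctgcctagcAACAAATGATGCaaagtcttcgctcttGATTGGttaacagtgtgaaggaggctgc
H2-Aa: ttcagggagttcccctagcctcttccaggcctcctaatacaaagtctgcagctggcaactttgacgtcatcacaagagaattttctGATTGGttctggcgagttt
H2-Oa: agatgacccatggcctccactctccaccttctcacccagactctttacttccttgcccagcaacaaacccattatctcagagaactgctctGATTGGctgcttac
The X box core was found in 13 of 32851 promoters searched over their full length on both strands (0.0396%). Of the 7 member genes used, 4 held it. The Y box core was far more common, in 16.1% of all promoters, and all 7 members used held it, the H2-DMa gene outside the window used here. H2-Aa, H2-Oa and H2-DMa held no X box core of these letters. A match is a description of letters and not of binding.

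The 6 libraries held 59309093 to 98583066 UMIs (unique molecular identifiers, each a captured transcript), of which haemoglobin took 21.4% to 61.4% in Apc ICI, against 1.87% to 29.0% in AOM PN. After filtering, 4726 to 6804 cells remained per Apc ICI library and 8060 to 11399 per AOM PN library, and pairs of libraries shared 10 to 52 cell barcodes. Cells were clustered without the 10 members, and clusters were called dendritic-like, B-like and so on from other markers. Apc ICI gave 316 and AOM PN 1287 dendritic-like cells, the B-like class 459 and 412, the monocyte/macrophage-like class 2033 and 6497, and the epithelial-like class 2348 and 2348. The mast-like class held 53 and 3467 cells, with 14, 21 and 18 in the Apc ICI libraries. Levels are given as CPM, counts-per-million of all UMIs of a class in a library with haemoglobin left out. This was a 3′ assay with 1 tag per transcript, so levels do not scale with gene length. Free RNA was read in haemoglobin-rich barcodes with under 200 genes.

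Class II expression was concentrated in professional antigen-presenting cells. Monocyte/macrophage-like cells carried 59.99% of all member UMIs in Apc ICI, against 60.2% in AOM PN, while B-like cells carried 11.7% and 2.57%. The dendritic-like class carried 24.4% and 32.8% with only 1.92% and 4.34% of the cells. Summed over the 10 members, the level in dendritic-like cells was 33364, 39361 and 30148 CPM in Apc ICI 1 to 3, against 39839, 35128 and 43919 in AOM PN 1, 2 and 3. B-like cells held 32536, 34918 and 32998 CPM in Apc ICI, against 27731, 29480 and 30707 in AOM PN. Monocyte/macrophage-like cells held 23549, 23888 and 22424 against 15380, 16800 and 26744. Each of these sums exceeded every epithelial-like, mast-like and neutrophil-like sum. Epithelial-like cells held 213, 149 and 95.03 CPM in Apc ICI, against 497, 208 and 533 in AOM PN. Mast-like cells held 247, 258 and 101 against 246, 290 and 227. Neutrophil-like cells, which served as a class not known for the pathway, held 464, 562 and 258 against 284, 354 and 686.

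**Figure D1:**
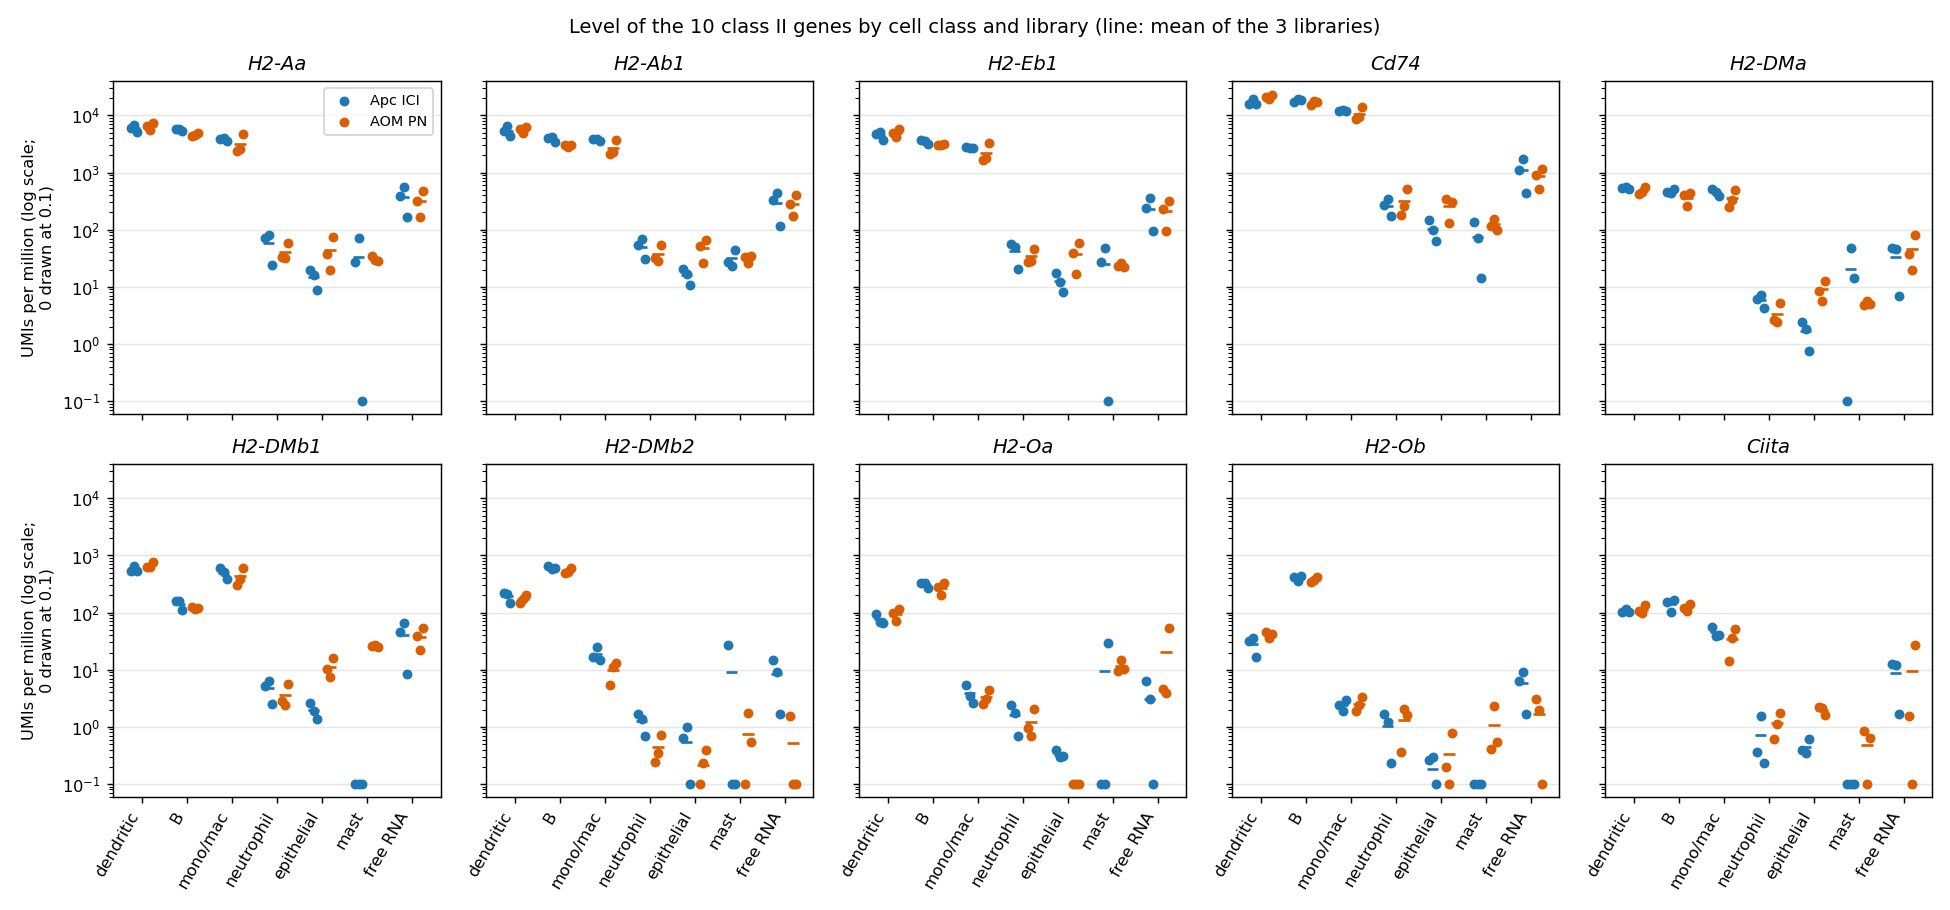
Level of each member gene (CPM, log axis) in each cell class, with 1 point per library coloured by model. Dendritic-like, B-like and monocyte/macrophage-like cells stand above the other classes for the classical chains and Cd74, while H2-DMb2, H2-Oa and H2-Ob are highest in B-like cells.

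The classical chains, which form the presenting molecule, were highest in dendritic-like cells. H2-Aa averaged 6197 ± 858 CPM there (SD, n = 6 libraries), 5132 ± 615 in B-like and 3516 ± 873 in monocyte/macrophage-like cells, and the ranges of neighbouring classes in this order overlapped. H2-Ab1, the partner of H2-Aa, averaged 5468 ± 830 CPM in dendritic-like cells, with no library of another class reaching that range. It averaged 3456 ± 557 in B-like and 3233 ± 819 in monocyte/macrophage-like cells, which overlapped. H2-Eb1 averaged 4729 ± 727, 3293 ± 286 and 2487 ± 622 CPM in the same classes, and only the last pair overlapped. Classes were built from the same cells, so their order is described and was not tested.

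Cd74 was the most abundant member in each of these classes. It averaged 19018 ± 2800 CPM in dendritic-like and 17576 ± 1387 in B-like cells, which overlapped, and 11294 ± 1949 in monocyte/macrophage-like cells, which did not overlap with B-like cells. Plasma-like cells came next with 3722 ± 1351 CPM, below every library of the other 3 classes, the Apc ICI libraries holding only 4, 1 and 1 plasma-like cells.

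The peptide editors differed among themselves in how they divided the classes. H2-DMa, the alpha chain of H2-DM, averaged 507 ± 54.1, 415 ± 85.5 and 406 ± 104 CPM in dendritic-like, B-like and monocyte/macrophage-like cells, with overlapping ranges. Of the beta chains, H2-DMb1 averaged 626 ± 88.1 CPM in dendritic-like and 466 ± 123 in monocyte/macrophage-like cells but 132 ± 22.1 in B-like cells. H2-DMb2 ran the other way, with 577 ± 64.8 in B-like, 184 ± 31.2 in dendritic-like and 14.4 ± 6.50 in monocyte/macrophage-like cells, and the ranges of the 3 classes did not overlap. H2-DMb1 and H2-DMb2 are near-identical copies, so reads may be split between them with error. The H2-O genes were also B-like. H2-Oa averaged 292 ± 50.9 CPM in B-like and 85.7 ± 19.4 in dendritic-like cells, and H2-Ob 391 ± 38.8 and 34.7 ± 10.3. In monocyte/macrophage-like cells they averaged 3.61 ± 1.16 and 2.48 ± 0.579.

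Ciita, the switch of the pathway, was a low-count gene. It averaged 131 ± 25.7 CPM in B-like and 110 ± 13.1 in dendritic-like cells, which overlapped, and 40.0 ± 14.97 in monocyte/macrophage-like cells. Several members overlap other genes (H2-Oa with BC051537, H2-Eb1 with Gm20513, H2-DMa with Brd2 and Ciita with Dexi, all on the opposite strand). Whether counting used strand is not given in the sources used here, so reads of such pairs cannot be told apart with certainty.

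**Figure D2:**
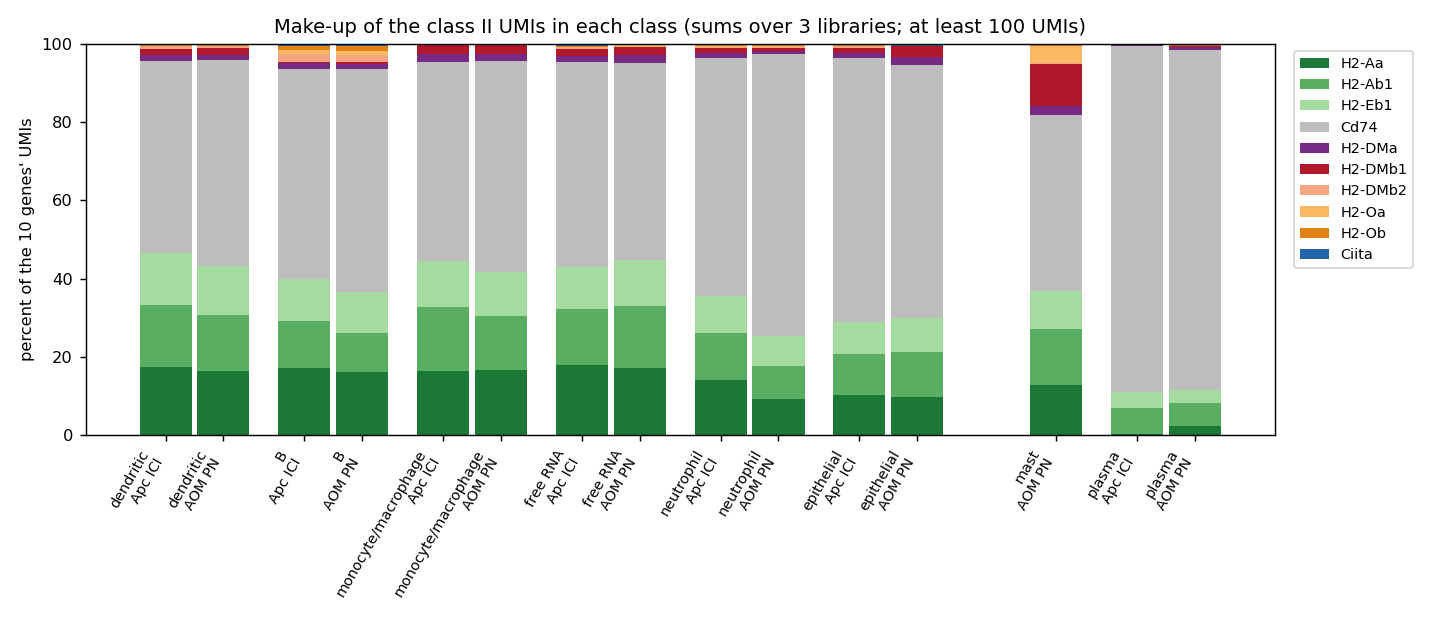
Make-up of the member UMIs of each class and of free RNA, as the percent of member UMIs that each gene contributes in each model. Cd74 takes close to 50% in dendritic-like and monocyte/macrophage-like cells and in free RNA. In Apc ICI and AOM PN it takes 60.9% and 72.1% in neutrophil-like, 67.5% and 64.8% in epithelial-like, and 88.5% and 87.0% in plasma-like cells.

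Cell by cell, class II was a property of nearly every B-like and dendritic-like cell. A cell had 10 or more member UMIs in 87.3% of Apc ICI and 96.8% of AOM PN dendritic-like cells, in 91.7% and 99.8% of B-like cells, and in 69.8% and 71.9% of monocyte/macrophage-like cells. The same held for 2.90% and 3.15% of epithelial-like, 1.26% and 1.83% of neutrophil-like, and 0% and 1.76% of mast-like cells. The median cell held 235 and 439 member UMIs in the dendritic-like class, 165 and 107 in the B-like class and 36 and 61 in the monocyte/macrophage-like class. In the epithelial-like, mast-like and neutrophil-like classes that median was 0 or 1.

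Classes of different depth were compared after thinning each cell to 1500 UMIs. Cd74 was then seen in 100% of B-like cells in both models, in 98.4% ± 1.43 of Apc ICI and 99.5% ± 0.264 of AOM PN dendritic-like cells, and in 83.3% ± 1.48 and 77.6% ± 11.9 of monocyte/macrophage-like cells (SD, n = 3 libraries each). It was seen in 14.6% ± 4.43 and 18.6% ± 4.88 of epithelial-like cells and in 4.76% ± 8.25 and 9.26% ± 2.24 of mast-like cells, the Apc ICI mast value resting on 19 cells. Neutrophil-like cells gave 24.5% ± 7.15 and 27.0% ± 9.78. The epithelial-like and mast-like shares were at or below the share in neutrophil-like cells, so no expression is read from them at this depth. Without thinning, the shares were 40.7% and 26.7% in epithelial-like, 13.8% and 29.2% in mast-like and 40.4% and 41.2% in neutrophil-like cells, whose median depths were 4537.5 and 1401, 999 and 6603, and 3113.5 and 2981 UMIs. Thinning left out 630 and 1231 epithelial-like, 34 and 417 mast-like and 764 and 640 neutrophil-like cells.

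H2-Ab1 was seen more often in AOM PN than in Apc ICI dendritic-like cells after thinning, in 90.8% ± 3.68 against 75.1% ± 3.96 (n = 3 each), and the groups did not overlap. The 2-sided exact permutation p was 0.1, the smallest that 3 libraries against 3 can give. For Cd74 in epithelial-like cells the exact permutation p was 0.4. The make-up of the dendritic-like class moved with the H2-Ab1 share: mature cells, marked by Ccr7 and Fscn1, made up 49.6%, 50.4% and 46.7% of it in the Apc ICI libraries, against 34.9%, 26.1% and 16.3% in the AOM PN libraries. Its part in the share was not tested.

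Free RNA carried the members at 2215, 3248 and 838 CPM in Apc ICI 1 to 3, against 1831, 995 and 2589 in AOM PN 1, 2 and 3, the last from only 37460 UMIs. These levels lay below every dendritic-like, B-like and monocyte/macrophage-like sum and above every epithelial-like, mast-like and neutrophil-like sum. In erythroid-like cells, another measure of RNA that the cell did not make, the levels were 1200, 1535 and 555 CPM, against 1824, 758 and 2937, so that Apc ICI 3 lay below the highest neutrophil-like sums. The epithelial-like level was 0.0961, 0.0459 and 0.113 times that of free RNA in the Apc ICI libraries, against 0.271, 0.208 and 0.206 times in the AOM PN libraries, without overlap. Over erythroid-like cells the ratios were 0.177, 0.0971 and 0.171 against 0.272, 0.274 and 0.182, also without overlap. Monocyte/macrophage markers, 14 genes used to mark another cell type, stood at 0.0648, 0.0392 and 0.103 times and at 0.122, 0.187 and 0.157 times their own free RNA level in the same cells.

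In AOM PN mast-like cells the make-up of the member UMIs differed from that of free RNA. H2-DMb1 took 10.8% of their member UMIs (9.31% to 10.99% over the 3 libraries) against 2.12% in AOM PN free RNA. H2-Oa took 4.45% (3.80% to 5.15%) against 0.391% (0.251% to 2.06%, from 7 UMIs). In basophil-like cells H2-Oa took 11.6% in Apc ICI and 7.81% in AOM PN, from 5 and 10 UMIs, and in T/NK-like cells 4.05% and 1.04%. The level of H2-DMb1 in the mast-like cells was 25.9, 27.0 and 24.97 CPM in AOM PN 1, 2 and 3, from 680 UMIs in 16.8% of cells and with at most 5 in a cell. It hardly varied between libraries, while H2-DMb2, its near-identical copy, gave 14 UMIs. In the mast-like cells H2-Oa stood at 9.34, 14.9 and 10.3 CPM. BC051537, the gene on the other strand, gave 2 UMIs, and the T cell gene Trac stood at 10.1 CPM in these cells against 377 in AOM PN T/NK-like cells, where H2-Oa stood at 10.3. The 53 Apc ICI mast-like cells gave 0 UMIs of H2-DMb1 among 148541, which allows up to 24.8 CPM (95% exact Poisson limit, counting error only). That limit lies just below each AOM PN library and inside the counting interval of their pooled level, 23.4 to 27.2 CPM, and no test was made with so few cells. Of the other members, Cd74 stood at 114, 156 and 99.6 CPM in AOM PN mast-like cells, the classical chains at 22.0 to 34.8 and H2-DMa at 4.77 to 5.74. H2-DMb2, H2-Ob and Ciita stood at 0 to 2.29 CPM there.

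The comparison of AOM PN with Apc ICI within a class asked whether class II levels differed between the tumour models. In dendritic-like cells none of the 10 members passed edgeR's quasi-likelihood test at an adjusted p of 0.05, where 1.24% of all genes tested did. Cd74 was closest: 15914, 19448 and 15669 CPM in Apc ICI, against 21371, 19140 and 22568 in AOM PN, a log2 difference of 0.41 (SE 0.12) with an edgeR adjusted p of 0.158. The groups overlapped. The members ranged from -0.05 to 0.57 on the log2 scale. Of the 10 members, 3 had an unadjusted edgeR p under 0.05, as had 1325 of all 8637 genes tested. DESeq2 also called 0. H2-Ab1 differed by 0.17 (SE 0.16, edgeR adjusted p = 0.679), H2-Aa by 0.22 and H2-Eb1 by 0.25. Of the editors, H2-DMa differed by -0.05, H2-DMb1 by 0.32, H2-DMb2 by -0.05, H2-Oa by 0.39 and H2-Ob by 0.57, and Ciita by 0.17.

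Subsets of dendritic-like cells differed in level. Type 2 cells held 44263, 50710 and 40562 CPM in Apc ICI, against 47680, 41342 and 49763 in AOM PN, summed over the members. Type 1 cells were close to them, with 42314, 47178 and 41824 against 45900, 39506 and 39776. Mature cells were lower, with 18245, 20454 and 28478 against 27695, 30769 and 26367, and the groups overlapped. No member was called within type 2 cells, where 0.699% of genes were, or within mature cells, where 0.691% were. In mature cells H2-DMb1 came closest, at 1.12 on the log2 scale with an edgeR adjusted p of 0.0893. Plasmacytoid cells, which present little antigen through class II, ranged from 5712 to 19322 CPM.

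In B-like cells all 10 members were lower in AOM PN, from -0.35 to -0.04 on the log2 scale, but none was called by edgeR or DESeq2, where edgeR called 0.953% of genes. H2-Ab1 stood at 4032, 4212 and 3467 CPM in Apc ICI, against 3092, 2837 and 3095 in AOM PN, and the groups did not overlap. Its log2 difference was -0.35 (SE 0.11), with an edgeR adjusted p of 0.172. Cd74 stood at 16940, 19333 and 18796 against 15431, 17590 and 17367, a difference of -0.10 (edgeR adjusted p = 0.695). H2-Aa differed by -0.26, H2-Eb1 by -0.16, H2-DMa by -0.30, H2-DMb1 by -0.28, H2-DMb2 by -0.15, H2-Oa by -0.15, H2-Ob by -0.04 and Ciita by -0.08. Of the 10 members, 2 had an unadjusted edgeR p under 0.05, as had 614 of all 4933 genes tested.

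In monocyte/macrophage-like cells none of the 10 members was called by edgeR or DESeq2, where edgeR called 2.9% of genes. An unadjusted edgeR p under 0.05 was seen for 1 member and for 2332 of all 10964 genes tested. H2-Ab1 stood at 3874, 3882 and 3527 CPM in Apc ICI, against 2096, 2287 and 3733 in AOM PN, so AOM PN 3 lay within the Apc ICI range and the other AOM PN libraries below it. The log2 difference was -0.29 (SE 0.20, edgeR adjusted p = 0.428). Without AOM PN 3, H2-Ab1 fell by 0.57 with an edgeR adjusted p of 0.0303. Cd74 stood at 11796, 12280 and 11774 against 8704, 9300 and 13911, a difference of 0.01 (SE 0.18). H2-Aa differed by -0.07, H2-Eb1 by -0.11, H2-DMa by -0.14, H2-DMb1 by -0.04, H2-DMb2 by -0.74, H2-Oa by -0.09, H2-Ob by 0.30 and Ciita by -0.26.

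Different clusters held most of this class in the models. A cluster led by Apoe, C1qa and C1qb made up 42.4%, 56.6% and 57.0% of it in Apc ICI, against 21.9%, 9.70% and 9.45% in AOM PN. Within it the members summed to 42081, 25211 and 38421 CPM in Apc ICI, against 57269, 53416 and 43492 in AOM PN, and the groups did not overlap. H2-DMb1, at 567, 360 and 453 against 757, 780 and 661 CPM, rose by 0.76 (SE 0.17, edgeR adjusted p = 0.0424), the only 1 of 9 members tested that was called, where 0.838% of genes rose. Cd74 differed by 0.72 (edgeR adjusted p = 0.0690). Its cells were shallow, with a median of 1490 UMIs.

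The other macrophage clusters showed no called member. A cluster led by Ccl24, Arg1 and Fn1 held 29163, 27942 and 27740 CPM against 19891, 28028 and 31984. It made up 18.3% to 24.9% of the class in Apc ICI, against 31.2% to 63.5% in AOM PN. A cluster led by Lyz2, Plac8 and Ms4a6c, genes of monocytes, held 12642, 13615 and 7510 against 4828, 7430 and 10463. In these clusters edgeR called 0.925% and 0.724% of genes, respectively.

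**Figure D3:**
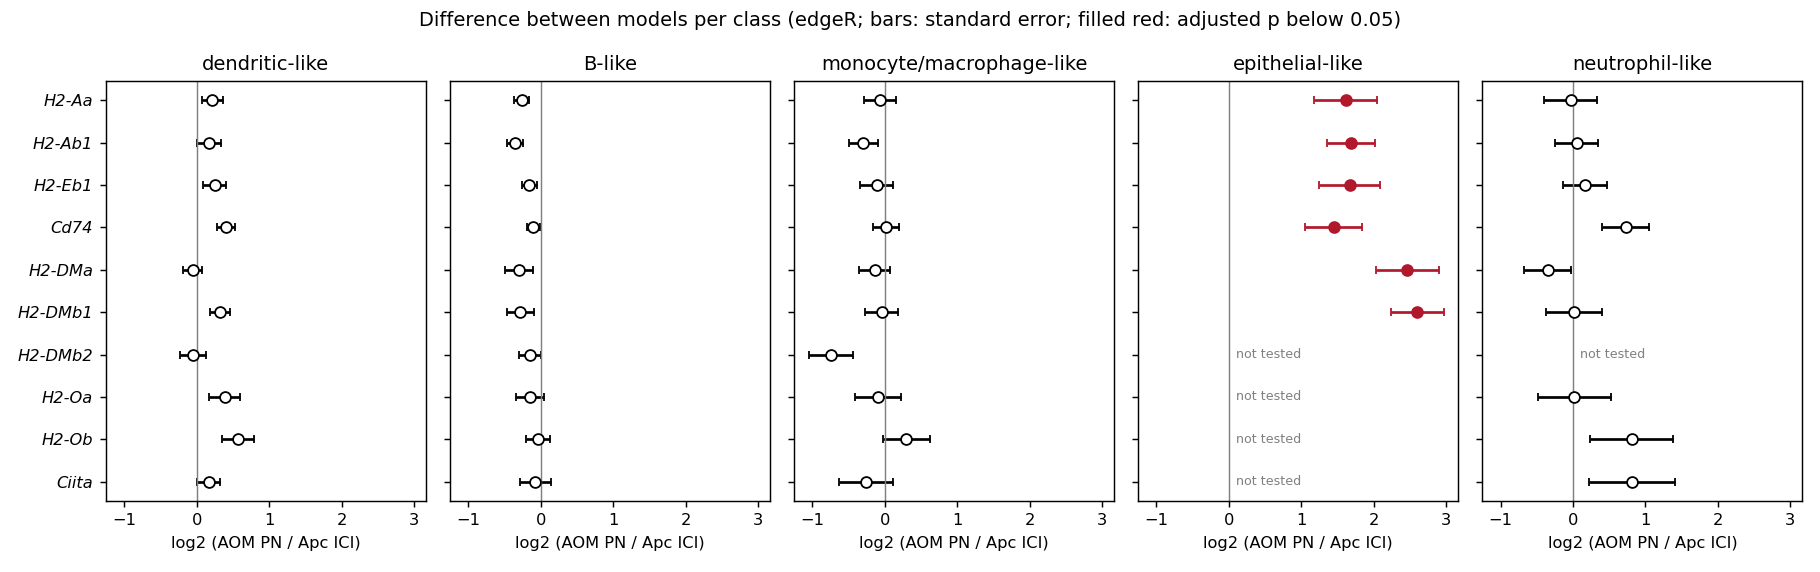
Log2 difference of each member between AOM PN and Apc ICI (edgeR, bars 1 standard error) in each class with a test. The 6 members tested in epithelial-like cells lie between 1.44 and 2.60, while those of dendritic-like, B-like and monocyte/macrophage-like cells lie between -0.74 and 0.57.

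In neutrophil-like cells 9 members could be tested and none was called by edgeR or DESeq2, where edgeR called 31.8% of genes. None of these members had an unadjusted edgeR p under 0.05, while 4164 of all 9433 genes tested had. Cd74 differed by 0.73 (SE 0.33, edgeR adjusted p = 0.115). Mast-like cells had fewer than 20 cells in 2 of the Apc ICI libraries, so no test was made of them in the main design.

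Epithelial-like cells were the class in which members were called. H2-DMb1, H2-DMa, the 3 classical chains and Cd74 all rose in AOM PN. Their summed level stayed near that of neutrophil-like cells, but H2-DMb1 and H2-DMa stood above the 2.45 to 5.73 and 2.38 to 5.12 CPM of AOM PN neutrophil-like cells. With Apc ICI included, the neutrophil-like level of H2-DMa reached 7.08 CPM. Both genes stood below AOM PN free RNA, which held H2-DMb1 at 38.3, 21.9 and 53.4 CPM and H2-DMa at 36.8, 19.9 and 80.1. The AOM PN 3 values of free RNA rest on 2 and 3 UMIs. The other 4 members were too low to be tested, so these 6 are those that passed the filter and not the whole pathway. H2-DMb1 and H2-DMa did not reach the filter's level in enough Apc ICI libraries and passed only with their AOM PN levels. In this class 20.1% of all genes tested rose and 38.3% were called in either direction, with a median log2 difference of 0.01 over all genes.

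H2-DMb1 stood at 2.58, 1.86 and 1.37 CPM in the Apc ICI libraries, against 10.1, 7.31 and 16.3 in the AOM PN libraries. It rose by 2.60 on the log2 scale (SE 0.37, edgeR adjusted p = 0.000830). H2-DMa stood at 2.45, 1.81 and 0.760 against 8.53, 5.66 and 12.7 CPM, and rose by 2.46 (SE 0.44, edgeR adjusted p = 0.00257). For both chains of H2-DM the groups did not overlap.

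Among the classical chains, H2-Ab1 stood at 20.1, 16.6 and 10.9 CPM in Apc ICI, against 51.6, 25.9 and 66.4 in AOM PN, without overlap, and rose by 1.68 (SE 0.33, edgeR adjusted p = 0.00445). H2-Aa stood at 19.9, 16.3 and 8.82 against 37.9, 19.8 and 73.9 and rose by 1.61 (SE 0.44, edgeR adjusted p = 0.0195). H2-Eb1 stood at 17.4, 12.2 and 8.06 against 38.9, 16.5 and 58.0 and rose by 1.67 (SE 0.42, edgeR adjusted p = 0.0138). For these last chains AOM PN 2 lay within the Apc ICI range. Cd74 stood at 149, 98.3 and 64.2 against 347, 130 and 303 and rose by 1.44 (SE 0.39, edgeR adjusted p = 0.0191), again with AOM PN 2 inside the Apc ICI range. The Cd74 call was lost, with edgeR adjusted p between 0.0505 and 0.0734, when Apc ICI 2 or 3, or AOM PN 1 or 3, was left out.

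Of the members that were too low to test, Ciita stood at 0.387, 0.350 and 0.608 CPM in Apc ICI, against 2.18, 2.12 and 1.59 in AOM PN, without overlap. The Ciita levels rest on 13 and 24 UMIs. H2-Oa stood at 0.387, 0.291 and 0.304 CPM in Apc ICI, against 0 UMIs in every AOM PN library. H2-DMb2 took 0.455% of the member UMIs in Apc ICI, against 0.0423% in AOM PN, from 22 and 2 UMIs. H2-Ob took 0.145% and 0.0635%, from 7 and 3. Without the low-count filter all 10 members were tested in this class and 7 rose, where 12.4% of genes rose.

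Markers of other cells moved with these values. In epithelial-like cells the 14 monocyte/macrophage markers summed to 91.2 to 184 CPM in Apc ICI, against 147 to 246 in AOM PN, and the neutrophil markers to 127 to 358 and 655 to 1422. The T/NK markers summed to 16.4 to 34.7 and 132 to 193, without overlap, and the mast markers to 27.99 to 95.9 and 264 to 1932. The dendritic markers ran the other way, with 41.8 to 48.3 and 21.4 to 34.96, as did the B markers, with 5.29 to 8.51 and 1.99 to 6.13. Their part in the rise was not tested. A sub-cluster of 91 cells carried 853 CPM of macrophage markers against at most 218 in any other. Without it the same 6 members rose, by 1.08 to 2.44 on the log2 scale, where 20.3% of genes rose. Different sub-clusters held most of the epithelial-like class in the models. In Apc ICI a sub-cluster led by the metallothioneins Mt3 and Mt4 with Epcam and Ptn held 472 cells (36 in AOM PN), and in AOM PN one led by Gm26917, Lars2 and Sox4 held 676 (58 in Apc ICI). The members' pooled level was higher in AOM PN in 11 of 14 sub-clusters and in Apc ICI in 3. Of these, 5 had at least 5 cells in every library. In a deep sub-cluster led by Gpx2, Epcam and Krt8, with 45 Apc ICI and 223 AOM PN cells, the members summed to 43.8, 48.6 and 70.7 CPM in Apc ICI, against 433, 168 and 242 in AOM PN, without overlap. Single cells gave 302, 191 and 173 of the 1180 member UMIs of AOM PN 1 there. A single cell gave 80 of 365 in AOM PN 2 and 81 of 305 in AOM PN 3. In one led by Gm26917, Gpx2 and Epcam, with 224 and 139 cells, they summed to 121, 94.5 and 51.7, against 249, 114 and 214, and the groups overlapped. In the other 3, all shallow, the pooled level was higher in Apc ICI and the groups overlapped. In one led by Gm26917, Epcam and Krt19 (187 and 91 cells) the members summed to 936, 470 and 314, against 408, 245 and 250. In one led by Gpx2, Lgals4 and Reg3b (53 and 354 cells) they summed to 1737, 531 and 219, against 376, 268 and 373. In the one led by Gm26917, Lars2 and Sox4 they summed to 901, 551 and 159.9, against 311, 172 and 417. The median depth was 855 to 1201 UMIs in these 3, against 4569 and 25110 in the other two. Thinned to 1500 UMIs per cell, H2-Eb1 and Cd74 rose among 4 members tested (1.31 and 0.93, edgeR adjusted p = 0.0197 and 0.0376), where 14.6% of genes rose.

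The level was also read by depth of the cell. The 88 Apc ICI and 29 AOM PN cells below 500 UMIs stood at 1107 and 394 CPM. In cells of 500 to 1499 UMIs the members stood at 834 CPM in Apc ICI, against 523 in AOM PN. In cells of 1500 to 4999 UMIs they stood at 325 and 487, and in cells of 5000 to 14999 at 219 and 370. In cells of 15000 UMIs or more, they stood at 119 and 369, that is 153, 120 and 71.5 CPM in Apc ICI 1 to 3, against 437, 185 and 564 in AOM PN 1, 2 and 3. The Apc ICI level thus fell with depth at each step, the AOM PN level was about the same in the 2 deepest bins (370 and 369 CPM), and in the deepest cells the groups did not overlap. In the bins between 500 and 14999 UMIs the groups overlapped. In cells of 5000 to 14999 UMIs the libraries stood at 436, 195 and 74.8 CPM in Apc ICI, against 494, 260 and 268 in AOM PN. A cell of 15000 UMIs or more held 4.21 member UMIs on average in Apc ICI, against 12.8 in AOM PN. The medians there were 2 and 3, so few cells carried the difference. Of the 840 member UMIs of AOM PN 3 in these cells, 455 came from 1 cell of the sub-cluster with macrophage markers. In AOM PN 1, single cells outside that sub-cluster gave 302, 191, 173 and 109 of the 1251 member UMIs. Without that sub-cluster the deepest cells stood at 151, 104 and 58.96 CPM in the Apc ICI libraries, against 439.8, 165 and 264 in the AOM PN libraries, still without overlap. Over all depths, the top 1% of epithelial-like cells held 28.7% of the member UMIs in Apc ICI, against 47.5% in AOM PN.

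**Figure D4:**
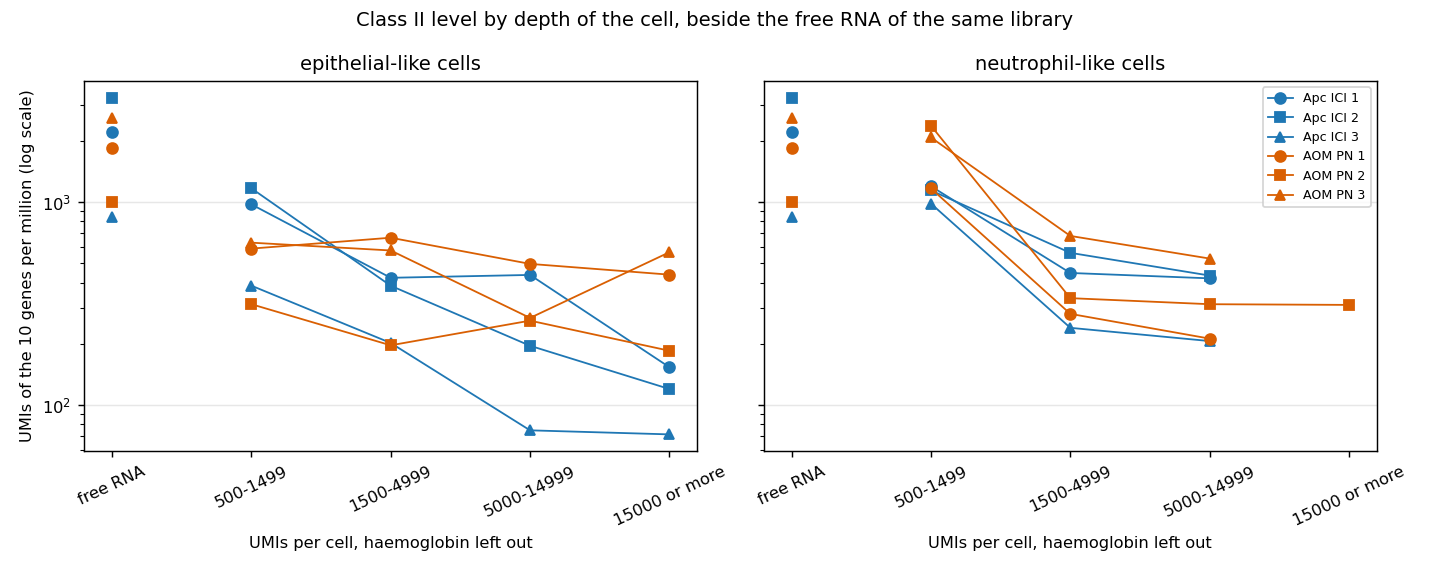
Summed level of the 10 members (CPM, log axis) in epithelial-like and neutrophil-like cells by depth of the cell, in cells of 500 UMIs or more. Each library has 1 line, coloured by model, and a separate point for its free RNA. Pooled over libraries, which is not drawn, the epithelial-like level goes from 834 CPM in the first depth bin to 119 in the last in Apc ICI. In AOM PN it goes from 523 to 369.

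A few epithelial-like cells held Cd74 in number, and the models differed in what went with it. Outside the sub-cluster with macrophage markers, 49 Apc ICI and 38 AOM PN cells had 10 or more Cd74 UMIs. Of these, 20 Apc ICI cells and 1 AOM PN cell had no UMI of a classical chain, although the Apc ICI cells were deeper (median 32825 against 19010 UMIs). Classical chain UMIs per Cd74 UMI came to 0.0434, 0.0839 and 0.0118 in Apc ICI 1 to 3, against 0.265, 0.229 and 0.229 in AOM PN 1, 2 and 3, without overlap. They rest on 20, 25 and 4 cells, against 22, 10 and 6, and the Apc ICI 3 ratio on 1 classical chain UMI. These cells were picked by their Cd74 count, so the ratios are described and not tested. In cells chosen the same way the ratio was 0.949 and 0.824 in dendritic-like, 0.874 and 0.779 in monocyte/macrophage-like, 0.742 and 0.640 in B-like and 0.115 and 0.132 in plasma-like cells. It was 0.328 and 0.168 in neutrophil-like cells, and 0.502 in AOM PN mast-like cells. No classical chain UMI was seen in 26 of 42 such neutrophil-like cells of Apc ICI and 70 of 128 of AOM PN. The pooled ratio of 0.255 in AOM PN epithelial-like cells thus lay within the neutrophil-like values, and the 0.0615 of Apc ICI below every other class.

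The richest of these cells held many UMIs of an epithelial marker. Outside the sub-cluster named above, 7 Apc ICI and 6 AOM PN epithelial-like cells held 50 or more member UMIs. The Apc ICI cells held 44 to 80 UMIs of Cd74 and 0 to 11 of the classical chains, with 97 to 201 of the epithelial gene Epcam and at most 1 of the leucocyte gene Ptprc. The AOM PN cells held 57 to 230 of Cd74 and 18 to 58 of the classical chains, with 85 to 213 of Epcam and at most 2 of Ptprc. Those with 302, 191, 173 and 109 member UMIs were all from AOM PN 1, so the upper AOM PN values rest on 1 library. AOM PN 2 and AOM PN 3 gave 1 cell each, with 80 and 81 member UMIs. The Apc ICI cells came from Apc ICI 1 and 2 only. Over 12 leucocyte genes the Apc ICI cells held 0 to 4 UMIs and 5 of the AOM PN cells 0 to 8, while the AOM PN 2 cell held 151.

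**Figure D5:**
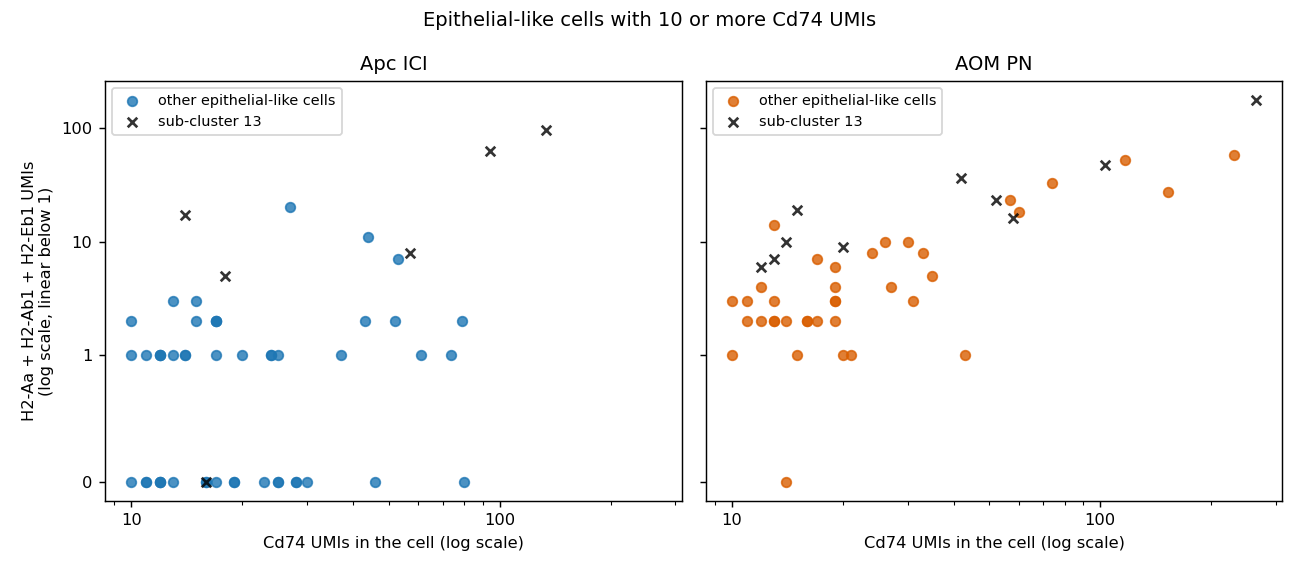
Cd74 UMIs against classical chain UMIs per epithelial-like cell with 10 or more Cd74 UMIs, for each model. Of the Apc ICI cells outside the sub-cluster with macrophage markers, 20 of 49 have no classical chain UMI, against 1 of 38 AOM PN cells.

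Whether the difference between models itself differed between classes was tested against monocyte/macrophage-like cells. In epithelial-like cells it was larger for 6 members, where 9.17% of genes were higher. These passed the low-count filter in both classes on their own, H2-DMb1 and H2-DMa in epithelial-like cells only with their AOM PN levels. They were H2-DMb1 at 2.63, H2-DMa at 2.59, H2-Ab1 at 1.93, H2-Eb1 at 1.72, H2-Aa at 1.60 and Cd74 at 1.36 on the log2 scale, with edgeR adjusted p from 0.000173 for H2-DMb1 to 0.0316 for Cd74. That of Cd74 missed the threshold in edgeR when Apc ICI 2 (adjusted p = 0.0807), Apc ICI 3 (0.121) or AOM PN 1 (0.0798) was left out. For dendritic-like and B-like cells no member was called, where edgeR called 0.0278% and 0.489% of genes.

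Genes that act with the members were taken from fixed lists. In epithelial-like cells 5 of 9 interferon gamma signalling genes rose and none fell, where 20.1% of all genes rose and 38.3% were called. They included the transcription factor Irf8, at 11.7 ± 2.69 CPM in Apc ICI (SD, n = 3), which rose by 1.78, and the feedback inhibitor Socs1, at 11.9 ± 0.670, which rose by 1.76. Among 7 genes of antigen processing, Ctss, the protease that trims Cd74 in dendritic and B cells, rose by 2.26, and 3 fell, led by Ctsl at -2.05 and Ctsd at -1.42. Of 7 partners of Ciita at the promoter, Rfxap rose by 0.61 and Nfyb fell by 0.84. Calls in 4 of 7 and 2 of 7 genes are to be read against the same 38.3%. Irf8 and Ctss are also genes of macrophages, whose markers are given above.

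In the immune classes fewer of these genes were called. In monocyte/macrophage-like cells Jak1 of the interferon list rose by 0.60, the co-stimulation list's Cd83 rose by 0.93 and the lysosomal protease Ctsd fell by 1.27. In neutrophil-like cells 3 of 9 interferon gamma genes rose, among them Jak2 by 0.70 and Ifngr1 by 0.69, and 5 of 8 processing genes fell, led by Ctsb at -1.70 and Lgmn at -1.45, where 14.7% of all genes rose and 17.0% fell. In dendritic-like and B-like cells no gene of these lists was called.

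The genes whose pattern over 50 sums of 10 classes was most like the mean of the members were Kynu (Pearson r = 0.945), Ly86 (0.941), Cd40 (0.924), BC035044 (0.910) and Il4i1 (0.901). The sums share libraries and depth, so these are descriptions with no p. Ly86, a partner of CD180, a protein of the Toll-like receptor family, averaged 360 ± 32.3 CPM in B-like, 278 ± 29.6 in monocyte/macrophage-like and 217 ± 33.8 in dendritic-like cells, and 0.922 ± 0.484 in epithelial-like cells (SD, n = 6).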

How the data were processed

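Values are the UMI counts as deposited by the authors, from Cell Ranger 6.1.2 and build mm10, per the submitters' processing notes. The annotation and the use of strand are not given in the sources used here. Barcodes below 200 genes or above 20% mitochondrial UMIs were dropped, and simulated doublets were removed at 0.8% per 1000 barcodes. Haemoglobin and the 10 members were left out of the clustering (leidenalg 0.10.2, Python 3.11.15), and classes were named from marker genes, so names can differ from the study's. Counts were summed per library and class (at least 20 cells) and tested with edgeR 4.0.16 (R 4.3.3): TMM, filterByExpr, glmQLFit and Benjamini-Hochberg over all genes, with DESeq2 1.42.0 as an alternative. Levels are CPM. Log2 differences are AOM PN over Apc ICI. On simulated counts, 41% to 80% of genes with 2-fold and 95% to 100% with 4-fold changes were called, with 4.49% to 10.6% false calls over the 5 classes. Shares of cells were thinned to 1500 UMIs. All members are named in each class of interest; other lists give up to 2 called genes per direction, and the 5 most alike genes are named. The members and lists were chosen with earlier results of these data known. Alternatives on the mixed sub-cluster, the macrophage clusters and the dendritic subsets were chosen after seeing the data. Intervals cover counting error only.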

Additional observations from a re-analysis of the deposited data

Results flagged for a closer look

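The difference between AOM PN and Apc ICI was larger in epithelial-like than in monocyte/macrophage-like cells for 6 members, those that passed the low-count filter in both classes, by edgeR's test of the interaction of class and model with library as a block. Of these, H2-DMa and H2-DMb1 passed it in epithelial-like cells only with their AOM PN levels. The log2 excess was 2.59 for H2-DMa, 2.63 for H2-DMb1, 1.93 for H2-Ab1, 1.60 for H2-Aa, 1.72 for H2-Eb1 and 1.36 for Cd74. The epithelial-like levels behind them were 95.03 to 533 CPM over all members, below those of free RNA, and the monocyte/macrophage-like class was made of different clusters in the models. The part of either in these differences was not tested.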

How the results depend on the processing

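Of 197 counts and levels recomputed under the alternatives, 187 stayed within their limits. Without the low-count filter 1 member rose in dendritic-like and 1 in neutrophil-like cells, in each case Cd74, where 2.00% and 10.2% of genes rose. Also without it, 4 members differed between dendritic-like and monocyte/macrophage-like cells, where 1.87% of genes were called. In monocyte/macrophage-like cells 1 rose within the Apoe and C1qa cluster, where 0.838% of genes rose. Leaving out a library gave 0 to 1 that fell, the 1 without AOM PN 3, where 2.28% of genes fell. Thinning left 2 epithelial-like members that rose, where 14.6% of genes rose. Leaving out a library gave 5 to 7, where 15.2% to 17.9% of genes rose. In free RNA, using erythroid-like cells gave 1200 (Apc ICI 1), 1535 (Apc ICI 2), 555 (Apc ICI 3) and 758 (AOM PN 2) CPM. The directions that turned were of differences not called in the class as a whole. They were H2-Ab1 in type 2 dendritic-like cells (-0.19) and in the Apoe and C1qa cluster (0.41), Cd74 of the macrophage class in the monocyte cluster (-0.18), and H2-DMb1 of that class in the Arg1 cluster (0.073), the Apoe and C1qa cluster (0.76, called there) and with doublets kept (0.00336). Leaving out a library gave -0.20 to 0.11 for Cd74 and -0.33 to 0.14 for H2-DMb1 in that class. Thinning to 1000 UMIs turned the mast-like shares of Cd74 (-1.005 percentage points) and H2-Ab1 (-5.42). The causes were not tested. Replicate numbers did not pair the samples (same-number correlations of -0.26 to 0.16). With the replicate block 5 epithelial-like members rose, where 17.0% of genes rose, and Cd74 of the macrophage class stood at -0.014. Low counts limit Ciita, H2-DMb2, H2-Oa and H2-Ob outside professional cells.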

Other observations

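Plasma-like cells held mostly Cd74. In the 97 AOM PN cells Cd74 took 87.0% of the member UMIs, H2-Ab1 5.98%, H2-Eb1 3.35%, H2-Aa 2.22% and H2-DMb1 0.222%. The 6 Apc ICI cells gave 88.5%, 6.62%, 4.16%, 0.189% and 0%. H2-Ab1 averaged 200.1 ± 164 CPM in the class (SD, n = 6 libraries, those of Apc ICI with 4, 1 and 1 cells) and H2-Eb1 142 ± 79.9. In AOM PN T/NK-like cells, 71.4% of the member UMIs lay in the top 1% of the cells, and the median cell held 1.

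H2-Eb2, a class II gene beside H2-Eb1, differed by -0.97 (SE 0.32) in dendritic-like and 0.23 (SE 0.21) in B-like cells, neither called by edgeR (adjusted p = 0.187 and 0.707).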
